A study of Saccharomyces cerevisiae with 9 samples.

Results

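The mitochondrial ribosome is a 2-subunit machine that translates the few proteins still encoded in mitochondrial DNA, most of them core parts of the respiratory chain and of ATP synthase. Nearly all of its own proteins are made in the cytosol from nuclear genes and imported; many descend from bacterial ribosomal proteins and others are found only in mitochondria. In budding yeast, loss of most of these proteins abolishes respiration and is usually followed by loss or rearrangement of mitochondrial DNA, while cells go on growing by fermentation. Yeast strains deleted for such genes were followed here in pools grown with and without sodium arsenite, a trivalent arsenical that binds thiols. They were taken as all strains whose annotated gene symbol starts with MRPL, MRPS, MRP and a digit, RSM and a digit, or IMG and a digit. Of 69 such symbols in the reference gene table, 67 had a probe on the array and 60 had a value on at least 1 array, out of 5101 strains in all. These 60 comprise 38 strains of the large subunit and 22 of the small subunit. MRP8, a protein not known to belong to the ribosome despite its name, MRP10, MRP17, MRPL3, MRPL36, RSM23 and RSM24 had probes but no value, and MRP4 and RSM26 were not matched to a probe.

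The series compared an arsenite culture with a control culture, started from the same cells, on each of 9 two-colour arrays that read the DNA tags of the deletion strains. The parent was the MATa/alpha diploid BY4743, which derives from S288C. Both of its copies of URA3, LEU2 and HIS3 were mutant (ura3delta0, leu2delta, his3delta1), and it was heterozygous for lys2delta0, for met15delta0 and for can1delta::LEU2-MFA1pr-HIS3, a marker for selecting MATa haploids. In each strain kanMX replaced 1 copy of 1 gene. Sporulation gave MATa haploids that lack the gene; they were grown until confluent on selective "Magic Marker" plates at 30 °C and hybridised on 6 arrays with 0, 100, 200, 400, 800 and 1600 µM arsenite against no arsenite. The unsporulated heterozygous diploid pool, in which each strain keeps 1 intact copy, was grown for 10 generations in liquid YPD with 450 µM or 0 µM against no arsenite, on 1 array each. The last array held haploids that additionally carry pfd1::TEF1pr-URA3, a null mutation of the prefoldin subunit PFD1, in both channels; its arsenite plates had 5 µM and lacked uracil, whereas its control plates contained uracil. No pool and dose was hybridised more than once, so no value has a replicate and precision is limited by how few arrays there are. Each value is the log2 of the arsenite signal over the control signal, minus that of the array's median strain; below 0, a strain was depleted by arsenite compared with that median strain. This direction is likely and not settled, and it rests on the uracil synthesis strains URA1, URA2, URA4 and URA5, which read between -5.23 and -3.98 on the array whose arsenite medium lacked uracil, and on the arsenite exporter strain ARR3 at -6.52 and the arsenite channel strain FPS1 at 4.18 at 800 µM.

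In haploids, strains lacking a mitochondrial ribosomal protein stood at the level of the other strains up to 200 µM arsenite, lower at 400 µM and lower again at 800 µM. The median of the measured members was 0.05 at 0 µM (41 strains), 0.10 at 100 µM (44 strains), 0.00 at 200 µM (50 strains), -0.63 at 400 µM (46 strains) and -1.31 at 800 µM (44 strains), where the median of all strains is 0 on every array by construction. The middle 50% of the members spanned -1.87 to -0.98 at 800 µM, against -0.51 to 0.46 for all strains. Of the 44 members measured at 800 µM, 39 lay under 0, and 33 (75.0%) lay under -1, against 16.1% of all strains. The step from 200 to 400 µM had a median change of -0.55 over 45 members, 37 of them lower, and the step from 400 to 800 µM one of -0.64 over 44 members, 39 of them lower. The earlier steps had median changes of -0.03 and -0.05. Over all strains no step had a median change beyond -0.02.

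**Figure D1:**
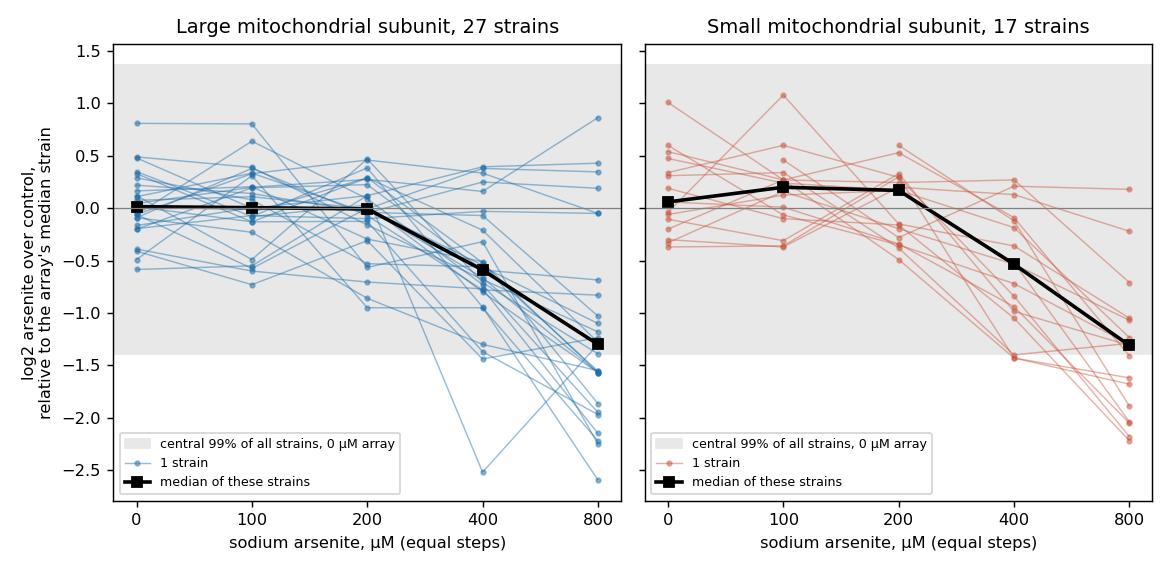
Log2 of arsenite over control, centred on the median strain (vertical axis), at 0 to 800 µM arsenite in equal steps (horizontal axis) for the 27 large-subunit and 17 small-subunit strains with an 800 µM value. Thin lines are single strains on 1 array per dose, black squares are the medians of the plotted strains, and the grey band is the central 99% of all strains on the 0 µM array; both medians stay near 0 up to 200 µM and end at -1.30 and -1.31.

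The spread of a pool without arsenite was taken from the 0 µM array, where the central 99% of all strains lay between -1.39 and 1.37. No member lay below this background range at 100 µM (0 of 44, against 0.831% of all strains) or at 200 µM (0 of 50, against 1.53%). At 400 µM 5 of 46 members did (10.9%, against 5.75% of all strains), and at 800 µM 21 of 44 members (47.7%, against 11.8%). No member lay above it at 800 µM, against 7.36% of all strains. With the probes of tag set 1 alone the 400 µM share was 2.94% of members, under the 4.37% of all strains. With tag set 2 alone it was 22.2%, over the 7.49% of all strains, so the excess at 400 µM turned with the tag set. The 5 at 400 µM were IMG2, MRPL16, MRP2, RSM10 and MRPS9; of these, MRP2 and RSM10 were also below the range at 800 µM. With a central 95% range the 800 µM count was 77.3% of members against 20.0% of all strains. MRPL6 at -1.39 lay just inside the group counted as below and MRPS17 at -1.31 just outside it.

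The probe error of a strain value was read from its 2 tags, each a separate probe for the same deletion. Both tags come from the same cultures and array, so variation between cultures is not in this error and is unknown. At 800 µM the standard deviation of a 2-tag mean was 0.28 over all strains and 0.42 over the members with both tags. Of 20 members with both tags at 800 µM, 15 had both under 0, 8 had both below the background range, 6 had 1 tag below it and 6 had none. The largest disagreement among the lowest strains was in MRPL11, whose tags read -3.47 and -1.72. MRPL10, a relative of a bacterial large-subunit protein, had tags at -1.43 and 0.06, so its mean of -0.69 is not a reading on which both tags are low. The other 24 members rest on 1 tag set at this dose.

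The dose trend was tested as a slope per dose step from 0 to 800 µM, over the 3731 strains measured on all 5 arrays, with limma and Benjamini-Hochberg adjustment. With 1 array per dose the order of the doses is the only replication, so the p-value weighs a slope against the scatter around a straight line. Of 40 members tested, 6 fell (all strains: 2.89% fell) and 0 rose (all strains: 0.214% rose); 22 of 40 had a negative slope at an unadjusted p under 0.05, as did 594 of 3731 strains in all. Their median slope was -0.34 per step, against 0.01 over all strains, and 33 of 40 slopes were negative. Calls depend on single arrays: without the 100 µM, the 400 µM or the 800 µM array limma called 0 of 40 members (19, 21 and 14 at an unadjusted p under 0.05), while 0.187%, 0.374% and 0.821% of all strains fell. Without the 200 µM array 2 of 40 members fell (all strains: 1.47%), and without the 0 µM array 5 of 43 (2.80%). A trended and robust prior called 0 of 40 members (28 at an unadjusted p under 0.05) and 0 of all strains. With quantile normalization 1 of 40 members fell, where 1.15% of all strains did. With dose counted in µM instead of steps, which gives most weight to the 800 µM array, 25 of 40 members fell, where 14.8% of all strains did.

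The 6 strains that fell were 4 of the large subunit and 2 of the small subunit. MRP2, a small-subunit relative of a bacterial protein of the ribosomal head, read 0.54, 0.27, -0.49, -1.43 and -1.68 at 0, 100, 200, 400 and 800 µM (slope -0.61 ± 0.07 SE, limma adjusted p = 0.0253). Its value was lower at each dose than at the dose before, and at 800 µM only 1 of its 2 tags was measured. MRP1, a small-subunit protein without a bacterial counterpart, read 0.60, -0.07, -0.35, -0.72 and -1.30 at the same doses (slope -0.45 ± 0.05, limma adjusted p = 0.0277). Its tags at 800 µM were -0.85 and -1.75, so its mean there lay inside the background range although its trend was among the straightest.

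In the large subunit, MRPL51, which has no bacterial counterpart, had the steepest slope that passed. It read 0.33, -0.13, -0.13, -1.37 and -1.97 at 0 to 800 µM (slope -0.58 ± 0.09 SE, limma adjusted p = 0.0432), with most of the loss at the 2 highest doses. MRPL35, also specific to mitochondria, read 0.49, 0.39, -0.16, -0.68 and -1.18 (slope -0.44 ± 0.06, limma adjusted p = 0.0356). MRPL17, a further mitochondria-specific protein, read -0.09, -0.23, -0.86, -1.30 and -1.55 on its only tag (slope -0.40 ± 0.05, limma adjusted p = 0.0356). It was the called member furthest down at 200 µM. MRPL9, a relative of a bacterial protein close to the peptidyl transferase centre, read 0.29, 0.08, -0.53, -0.56 and -1.10 (slope -0.34 ± 0.06, limma adjusted p = 0.0454). At 800 µM MRPL35 and MRPL9 each rested on 1 of their 2 tags. A further 16 members had an unadjusted p under 0.05 but adjusted p-values from 0.0555 to 0.151, with slopes from -0.72 to -0.26.

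The strains lowest at 800 µM were mostly not the ones with the straightest trend. MRPL11, a large-subunit protein related to the bacterial protein that anchors the ribosomal stalk, was the lowest member; it had no 0 µM value and read -0.08, 0.39, -0.94 and -2.60 at 100, 200, 400 and 800 µM. MRP20, whose bacterial relative sits at the exit of the peptide tunnel, read 0.81, 0.80, -0.56, -0.32 and -2.25 from 0 to 800 µM, the steepest slope of all members (-0.72 ± 0.15 SE, limma adjusted p = 0.0626). Without the 0 µM array its slope was -0.89, and without the 800 µM array -0.48. MRPL23, of the large subunit, read -0.49, 0.31, -0.95, -0.95 and -2.22 on 1 tag. MRPS8, of the small subunit, read 0.19, -0.10, -0.16, -1.05 and -2.22. RSM19, also of the small subunit, read 0.34, 0.60, 0.30, -0.84 and -2.18. In each of these 5 strains the largest drop between neighbouring doses was the one between 400 and 800 µM. MRPL4, whose bacterial relative also lies at the tunnel exit, differed in reading below 0 on every array from 0 to 800 µM, at -0.39, -0.60, -0.71, -0.77 and -2.15. MRPL23 was also below 0 without arsenite but not at 100 µM. The tags of MRPL4 at 800 µM agreed, at -2.22 and -2.08. Neighbours in the order of these 6 strains, which span -2.60 to -2.15, differ by less than the members' 2-tag error of 0.42. MRPL23, MRPS8 and RSM19 rest on 1 tag at 800 µM, and the members' error of a single tag there is larger, at 0.60.

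IMG2, a large-subunit protein first found through its effect on the integrity of the mitochondrial genome, did not follow the common course. It read -0.59, -0.55, 0.12, -2.52 and -1.30 at 0 to 800 µM, the lowest member at 400 µM but inside the background range at 800 µM (slope -0.34, limma adjusted p = 0.391). A single tag gave the 800 µM value. IMG1, found in the same way, read 0.02, -0.13, 0.29, -0.21 and -1.28.

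A smaller set of members read near or above the median strain at 800 µM. Between MRPL10 at -0.69 and MRP13 at -0.22 there was a gap, and above it lay 8 strains, 6 of the large and 2 of the small subunit. This division was made after the values were seen and is given as a description. MRP35, the large-subunit relative of a small bacterial protein, was the highest member, with 0.05, 0.20, 0.28, 0.16 and 0.87 at 0 to 800 µM (slope 0.16 ± 0.07 SE, limma adjusted p = 0.203) and both tags positive at 800 µM, at 1.07 and 0.66. MRPL50 read 0.48, 0.00, 0.12, 0.40 and 0.43, and MRPL39 read 0.08, 0.11, -0.01, 0.38 and 0.35; both are large-subunit proteins with bacterial relatives. Their tag sets disagreed at 800 µM, at 0.95 and -0.09 in MRPL50 and at 0.055 and 0.93 in MRPL39. MRP49 and RSM28, of the large and the small subunit, ended at 0.19 and 0.18. MRPL44 read between -0.20 and -0.03 on all 5 arrays, with both tags at -0.05 at 800 µM, and MRPL1, whose bacterial relative forms a mobile arm of the large subunit, ended at -0.05. MRP13, of the small subunit, read -0.22. The tags of MRP49 read -0.14 and 0.52 at 800 µM, while RSM28, MRPL1 and MRP13 rest on 1 tag set there. As background, MRP13, MRP49 and RSM28 are among the proteins whose loss yeast is known to tolerate without losing respiration at ordinary temperature. Respiration was not measured here, and whether it bears on the values of these strains was not tested. None of the 7 of these strains with a slope passed limma's threshold, their slopes running from 0.003 to 0.16; the 800 µM value that set the division also enters the slope.

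**Figure D2:**
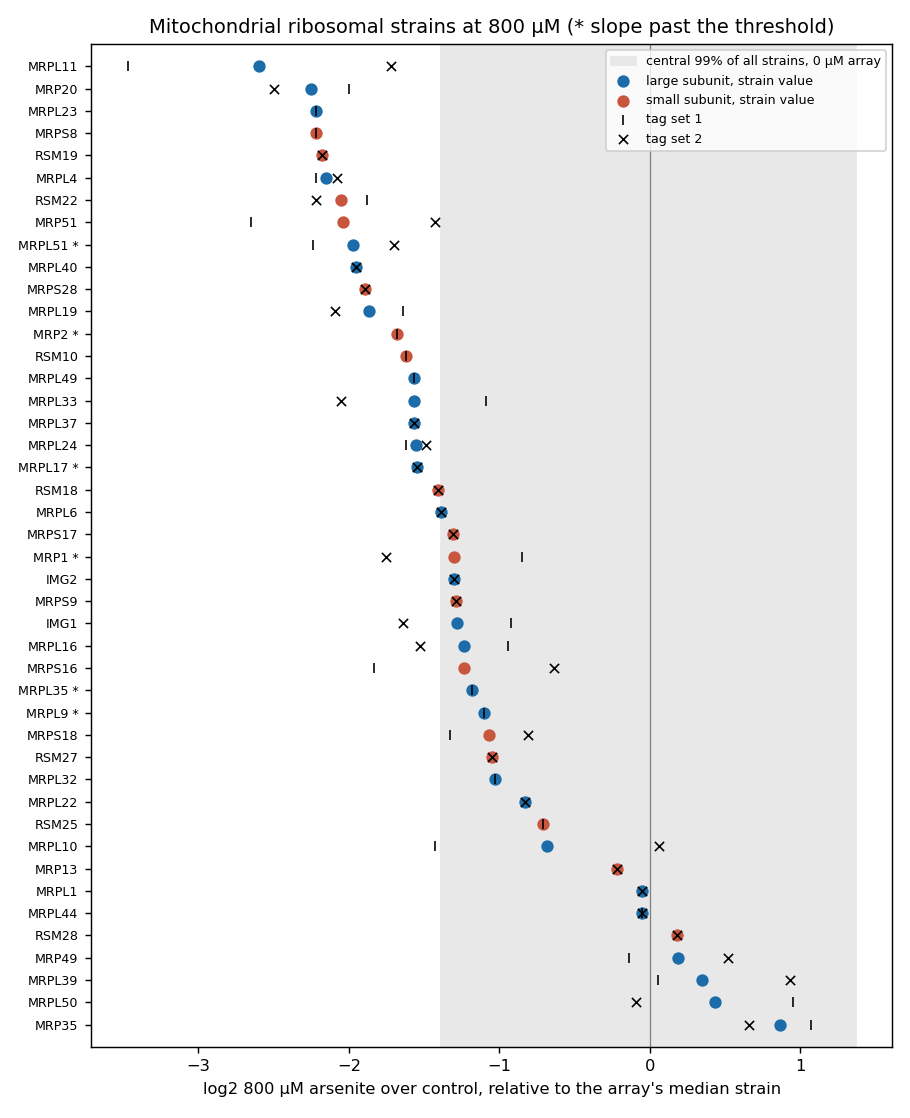
Log2 of 800 µM arsenite over control, centred on the median strain (horizontal axis), for each of the 44 measured strains (rows, lowest at the top). Filled circles are strain values coloured by subunit, bars and crosses the 2 tag sets, the grey band the central 99% of all strains on the 0 µM array, and an asterisk a slope past the threshold; 21 strains lie left of the band and 8 lie to the right of the gap that ends at -0.22.

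The large and small subunits had like medians at 800 µM, of -1.30 in the large subunit (27 strains) and -1.31 in the small subunit (17 strains). Below the background range were 13 of 27 large-subunit strains (48.1%) and 8 of 17 small-subunit strains (47.1%), against 11.8% of all strains. At 400 µM the medians were -0.67 in the large subunit (29 strains) and -0.54 in the small subunit (17 strains). The slope fell in 4 of 25 large-subunit and 2 of 15 small-subunit strains (all strains: 2.89%), with median slopes of -0.32 and -0.36. The agreement of the 800 µM medians depended on the tags: the large minus small difference was 0.01 over all probes, 0.54 with tag set 1 alone and -0.20 with tag set 2 alone. No test of the difference was run, since strains of 1 pool are not replicates.

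Members were also divided by ancestry. Of members whose protein has a bacterial relative, 16 of 30 lay below the range at 800 µM (all strains: 11.8%), with a median of -1.40. Of members found only in mitochondria, 3 of 12 did, with a median of -1.12. In the small subunit the medians were -1.52 for 10 strains with a bacterial relative and -0.71 for 5 without, and in the large subunit -1.34 for 20 strains and -1.30 for 7. The slope fell in 2 of 28 members with a bacterial relative and in 4 of 10 mitochondria-specific members (all strains: 2.89%). Neither difference between the classes was tested, and these are the slope calls that single arrays decide. MRP51 and RSM22, the remaining members, were assigned to neither class and read -2.04 and -2.05; MRP51 is known for its part in the translation of specific mitochondrial mRNAs and RSM22 resembles RNA methyltransferases.

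As a group, strains for neighbouring genes had a median close to that of all strains, with a wide spread. The 62 measured strains deleted for a gene directly next to a member had a median of -0.10 at 800 µM, and 8 of them (12.9%) lay below the background range, against 21 of 44 members (47.7%) and 11.8% of all strains. The lowest of these neighbours, at -5.79, was MCK1, a protein kinase gene beside MRPS18, which itself read -1.07.

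Other strains of mitochondrial gene expression were set beside the members from lists chosen with earlier results of these data known. Over all strains, 11.8% lay below the background range at 800 µM and 2.89% had a slope that fell. Of 9 measured ribosomal proteins whose symbols the rule does not take, 4 lay below the range at 800 µM, with a median of -1.32; RTC6 and MHR1 fell of 6 tested, with slopes of -0.31 (limma adjusted p = 0.0432) and -0.49 (limma adjusted p = 0.0472), and EHD3, an enzyme found in the small subunit, read 0.20. Mitochondrial aminoacyl-tRNA synthetases, which charge the tRNAs that the ribosome uses, were at least as low as the ribosomal strains, with 9 of 11 below the range and a median of -1.85. MSK1, the lysine enzyme, read -1.08 at 400 µM and -3.07 at 800 µM. SLM5, the asparagine enzyme, read -1.80 at 400 µM and -3.00 at 800 µM and was the only one of 11 to fall (slope -0.83, limma adjusted p = 0.0421). DIA4, the probable serine enzyme, was the highest at -0.55.

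Ribosome assembly factors and rRNA-modifying enzymes had a median of -1.02 with a narrow spread, from -1.25 for the helicase MRH4 to -0.73 for the methyltransferase MRM1; 0 of 7 lay below the range and limma called 0 of 6 slopes (4 at an unadjusted p under 0.05). AFG3, a subunit of the protease that matures MRPL32, read -1.01, beside MRPL32 itself at -1.03. Translation factors were divided. The elongation factor MEF1 at -1.43, the ribosome recycling factor RRF1 at -1.44 and RMD9, an mRNA-stabilising protein, at -1.88 were below the range. IFM1, the initiation factor, at -0.12 and MEF2 at -0.19 were near the median strain, and GUF1, a ribosome-associated GTPase, stood at 0.50; limma called 0 of 9 slopes in this list (4 lower at an unadjusted p under 0.05). Of strains for mitochondrial DNA maintenance and transcription, 4 of 11 lay below the range (all strains: 11.8%). They were the dynamin MGM1 at -2.42, the RNA polymerase RPO41 at -1.88, the fusion GTPase FZO1 at -1.80 and the DNA polymerase MIP1 at -1.69. MGM1 (slope -0.60, limma adjusted p = 0.0395), FZO1 (-0.48, adjusted p = 0.0489) and MHR1, which is also counted among the ribosomal proteins above, fell of 9 tested (all strains: 2.89%).

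Nuclear-encoded subunits of the respiratory chain and of ATP synthase read differently. Their median was 0.01 at 800 µM over 34 strains, 0 of them below the background range (all strains: 11.8%). Limma called 0 of 31 slopes, where 2.89% of all strains fell (2 of the 31 were lower at an unadjusted p under 0.05). COR1, a core subunit of the cytochrome bc1 complex, was the lowest at -1.20, and ATP14, of ATP synthase, the highest at 1.67. The median of the ribosomal members at the same dose was -1.31. Proteins of the cytosolic ribosome lay on the other side, with a median of 2.26 over 65 strains. The differences between these lists were not tested.

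**Figure D3:**
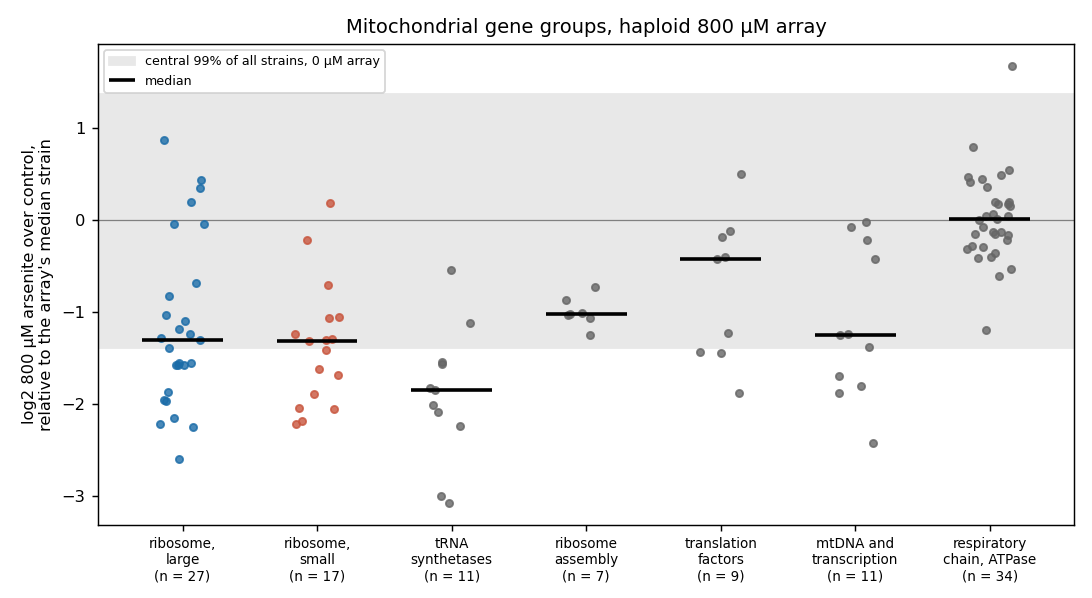
Log2 of 800 µM arsenite over control, centred on the median strain (vertical axis), for strains of the large and small mitochondrial ribosomal subunits and of 5 other mitochondrial gene groups (horizontal axis, with the number of strains). Points are strains of 1 array, black lines are group medians and the grey band is the central 99% of all strains on the 0 µM array; the ribosomal medians are -1.30 and -1.31, the synthetase median is -1.85 and the respiratory median is 0.01.

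The 1600 µM array held few members. It gave a value for 7 of 60 (11.7%), against 49.2% of all strains. Among strains under -0.5 at 800 µM, 2 of 36 members (5.56%) were still measured at 1600 µM, against 47.5% of 998 strains in all. Among strains at -0.5 or above, 5 of 8 members (62.5%) were, against 68.8% of 2958. The deposited median of this array was shifted by 2.99 toward loss, and its values are relative to that median. MRP35 read 4.94, above the range, followed by MRPL32 at 1.25, MRPL39 at 0.70, RSM22 at 0.60, MRPL44 at -0.03, MRP13 at -0.59 and MRPL1 at -0.61. Only MRPL44 had both tags on this array, so the value of MRP35 rests on 1 tag. Of the 7 members, 1 lay above the range (14.3%, against 14.5% of all strains). None of the 7 lay below the range (all strains: 3.99%). Their median of 0.60 becomes -2.39 without centring, so that MRP35 alone among them, at 1.95, kept a deposited ratio in favour of the arsenite culture. A slope over all 6 arrays could be fitted for these 7 members only, and limma called 0 of them (2 at an unadjusted p under 0.05).

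With 1 intact gene copy, the members lay at the level of all strains at 450 µM. In the heterozygous diploid pool the member median was 0.02 at 450 µM (58 strains) and 0.06 at 0 µM (57 strains). The difference, 450 minus 0 µM over tags measured on both arrays, had a median of 0.03 over 56 members and lay under -1 in 2 of them (all strains: 1.92%). At 450 µM 2 of 58 members lay below the background range of this pool (all strains: 2.41%). The haploid and heterozygous pools differ in medium, in growth form and in dose, so the values are given side by side. MRP20, at -2.25 in haploids at 800 µM, read 0.02 at 450 µM and 0.08 at 0 µM as a heterozygote. MRPL11, at -2.60 in haploids, read 0.88 at 450 µM and 0.03 at 0 µM, the highest difference of all members at 0.87. MRPL23 and MRPL35, with differences of 0.56 and 0.55, came next.

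The 2 strains with differences under -1 were MRPL7 and IMG2. MRPL7, a relative of a bacterial large-subunit protein, read -0.56 at 450 µM and 0.88 at 0 µM on 1 tag, a difference of -1.43. It had no value on the plain haploid arrays and read -0.54 on the pfd1 array. IMG2 read -1.10 at 450 µM and 0.25 at 0 µM, a difference of -1.34 on 2 tags. IMG2 (YCR071C) is a gene of the right arm of chromosome III. Among the 74 strains for other genes of that arm, 23 (31.1%) had differences under -1, against 1.43% of strains elsewhere; the part of this region in the result was not tested. The strains for CPR4 and RSA4, the nearest measured genes on either side of IMG2, read 0.03 and 0.48, and the next beyond them, ATG15 and SSK22, read -1.09 and -0.10. The other members on this arm, IMG1 and MRPL32, read 0.13 and -0.34. RSM22, at -0.99 at 450 µM and -0.52 at 0 µM, was the other member below the range at 450 µM, with a difference of -0.46. MRPS17 followed MRPL7 and IMG2 among the lowest differences, at -0.75.

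The order of the subunits in this pool depended on the measure. The median of the strains' 450 minus 0 µM differences was 0.12 over 34 large-subunit strains and -0.19 over 22 small-subunit strains. On each array alone the small subunit had the higher median: the large and small subunits were at 0.02 and 0.03 at 450 µM, and at 0.06 and 0.12 at 0 µM. No test of the difference was run.

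**Figure D4:**
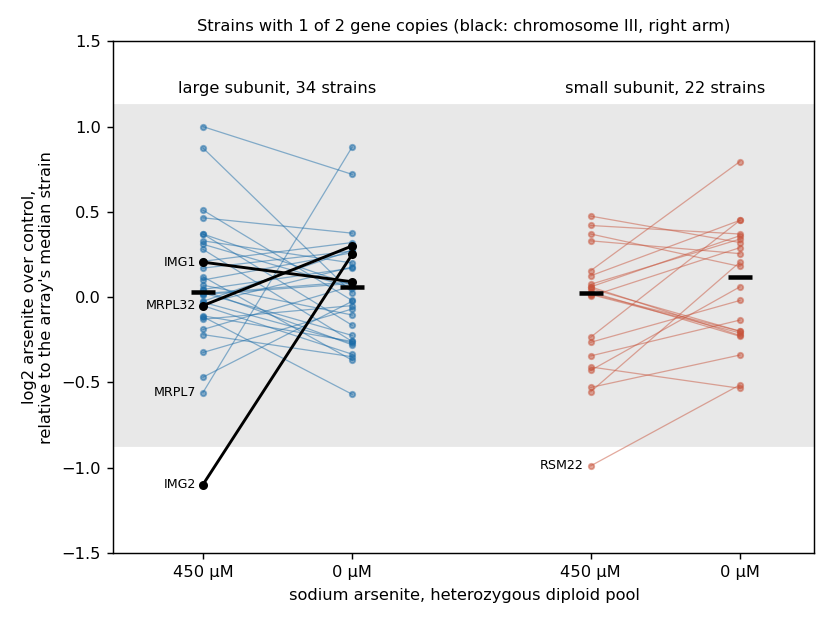
Log2 of arsenite over control, centred on the median strain (vertical axis), in the heterozygous diploid pool at 450 µM and at 0 µM arsenite (horizontal axis) for 34 large-subunit and 22 small-subunit strains measured on both arrays. Lines join the 2 values of a strain, black bars are medians, black lines are strains on the right arm of chromosome III and the grey band is the central 99% of all strains on the 0 µM array; IMG2 and RSM22 lie below the band at 450 µM.

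In haploids that also lack PFD1, at 5 µM arsenite and without uracil in the arsenite medium, the members lay at the median strain. Their median was -0.06 over 58 strains, from -1.11 to 1.01, and 0 of them were below the haploid background range (all strains: 4.47%). MRP51 at -1.11, MRPL23 at -0.998 and IMG2 at -0.89 were the lowest, and MRPS35 at 1.01, MRPL38 at 0.79 and MRPS28 at 0.68 the highest. MRPS28 had read -1.89 in plain haploids at 800 µM, while MRPS35 and MRPL38 had no value there. The large-subunit median was -0.08 and the small-subunit median 0.00. Dose and medium of this array differ from the others, and a ratio does not separate arsenite from the lack of uracil.

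Absence of a value was itself common in the haploid pools. At 800 µM 16 of 60 members were unmeasured, 11 of the large and 5 of the small subunit, so that 73.3% of members had a value against 77.6% of all strains. Of these 16 strains, 15 had a value in the heterozygous pool at 450 µM, with a median of 0.01, and 14 on the pfd1 array. They include MRPL15, MRPL20, MRPL25, MRPL28, MRPS12, MRPS35 and RSM7. Nothing is known here of their behaviour at 800 µM.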

How the data were processed

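Tag abundances of yeast deletion strains were measured on 9 two-colour arrays. The authors deposited 1 log ratio of the channels, taken here as log2, for each of 22575 probes; per the labels the control was in Cy5 and arsenite in Cy3. The base, centring, direction, scanner software and filters were not given in the sources used here, and a natural log would change the printed sizes but not their order. Signs were turned to arsenite over control; the lowest correlation over probes between any arrays was 0.05. Of 9727 probes with a value, 8765 name 1 gene, 962 name none and 0 name several; 8 of 18794 annotated probes had no match in the reference table (R64). Probes were averaged per strain (3541 strains with at least 2 probes, 1560 with 1) and centred on the array's median strain. Deposited medians lay between -0.09 and 0.14 on 8 arrays and at 2.99 at 1600 µM, and 2508 to 4904 strains had a value per array. The 2 probes of a strain lie 10971 rows apart, which defines tag sets 1 and 2.

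Slopes per dose step were fitted with limma 3.58.1 (R 4.3.3; lmFit, eBayes, two-sided, called at 0.05 after Benjamini-Hochberg adjustment over all strains); no other comparison has a test. Members named by rule were those past the threshold and the 6 lowest and highest at 800 µM. The rule also took the 3 lowest and highest on the 1600 µM array, in the heterozygous difference and on the pfd1 array. Members on the right arm of chromosome III were added for the heterozygous pool. Not all are given at every dose: MRP49, RSM28, MRPL44 and MRPL1 are given by end values or a range. IMG2, MRPL10 and MRPS17 at other points were singled out after their values were seen. So were the neighbours named at 800 µM and the genes of the companion lists. MRP35 was assigned to the large subunit once its symbol was seen. Members, lists and the 0 to 800 µM dose range were chosen with earlier results of these data known. Alternatives covered arrays left out, tag sets, normalization, centring, dose scale and the variance prior.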

Additional observations from a re-analysis of the deposited data

How the results depend on the processing

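With 1 array per dose the number of arrays limits every value, and signal over background is unknown for a table of ratios. The count of 6 of 40 members that fell (all strains: 2.89%) was 0 of 7 with all 6 arrays (all strains: 0%). It was 0 of 40 without the 100, the 400 or the 800 µM array (all strains: 0.187%, 0.374% and 0.821%). It was 2 of 40 without the 200 µM array (1.47%) and 5 of 43 without the 0 µM array (2.80%). Tag set 1 gave 8 of 27 (3.58%), tag set 2 gave 2 of 27 (2.49%) and at least 2 tags gave 1 of 16 (2.38%). Quantile normalization gave 1 of 40 (1.15%), median absolute deviation scaling 11 of 40 (3.89%) and no centring 10 of 40 (4.07%). Dose per µM gave 25 of 40 (14.8%) and a trended and robust prior 0 of 40 (0%). In 94 refits of 8 single slopes, 40 lost a call, 3 gained one, 51 left it as it was and 0 changed sign. Because 6 of the 8 were chosen for passing the threshold and the refits share data, a sign change was unlikely beforehand. Fewer arrays or strains enter several of these fits; otherwise the cause was not tested. The member median stayed between -1.48 and -1.29 at 800 µM and between -0.70 and -0.47 at 400 µM in the alternatives run. At 1600 µM it was -2.39 without centring, 0.09 with tag set 2 (5 strains) and -0.035 with 2 tags (1 strain), and the large minus small difference was -0.025 with tag set 2. That difference was 0.28 at 400 µM and 0.54 at 800 µM with tag set 1, and 0.21 at 400 µM with 2 tags. The share of members below the range was 2.94% at 400 µM with tag set 1 (0% of the small subunit, 4.37% of all strains), 25.0% with 2 tags (all strains: 8.26%) and 41.3% with a central 95% range (12.6%). At 800 µM it was 70.0% with 2 tags (100.0% of 5 small-subunit strains, 14.9% of all strains), 77.3% with a central 95% range (20.0%) and 75.0% for a log2 loss of 1 (16.1%). It was 0% in the heterozygous pool at 450 µM with tag set 1, also in each subunit (all strains: 2.08%), and 6.90% on the pfd1 array with the wider range, where 12.0% of all strains lay below it. Of 186 alternatives to the summary values, 155 moved a value by less than the limit set for it (the spread of tag pairs, a binomial interval, or 1.5 times for a count). A further 30 moved it by more and 1 reversed it. Some of the 155 could hardly move, since they compare shares of 0% or rest on few strains. The binomial interval for 2 small-subunit strains at 1600 µM, for instance, ran from 0 to 84.2%.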
